A study of Rattus norvegicus with 2 samples.

Results

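Thyroid hormone genes of the rat hypothalamus were followed between 2 stages of female development. The 8 genes, chosen by name, were the transporter Slco1c1, the deiodinases Dio2 and Dio3, the cytosolic hormone-binding protein Crym, the receptors Thra and Thrb, and the hormone-responsive transcriptional regulators Klf9 and Hr. Of these 8 genes, 6 were listed in the deposited tables under that name, out of 22304 named genes, and the expression of Dio2 and Dio3 was not analysed here. Hypothalami came from Sprague Dawley rats before puberty (postnatal day 25) and at puberty (postnatal day 35, the stage of the first estrus by vaginal smear), and the methods name 3 rats for each stage. Since the tables give 1 value per transcript and stage, the stages stand as 1 library each. The spread between rats is not known, and no difference between stages was tested. The values are FPKM, fragments counted per kilobase of each transcript and corrected for library size, so levels can be compared between genes. A whole hypothalamus mixes many cell types, and fewer cells of a type cannot be told apart from less RNA per cell.

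Thyroid hormone reaches the brain mainly as the prohormone thyroxine, which enters through membrane transporters. In the hypothalamus, tanycytes and astrocytes express the enzyme encoded by Dio2, which converts thyroxine into active triiodothyronine (T3), and the enzyme encoded by Dio3 inactivates both. T3 binds nuclear receptors encoded by Thra and Thrb, which pair with retinoid X receptors on DNA and exchange corepressors for coactivators when the hormone is bound. The system sets the output of thyrotropin-releasing hormone and, in seasonal breeders, is tied to the timing of reproduction.

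All 6 listed genes had nearly the same level in both libraries. The difference between stages was computed as log2 of (pubertal FPKM + 1) over (prepubertal FPKM + 1), so that positive values stand for a higher level at puberty. This log2 ratio ran from -0.11 for Hr to 0.01 for Crym, with a median of -0.04. Of the 6 genes, 1 lay above 0 and 5 lay below, and 0 differed by 1.5-fold or more. These signs are not fixed, since centring the log2 ratios within 10 classes of transcript length gave 0.06 for Thrb, 0.01 for Slco1c1 and Hr, and -0.04 for Crym. Among the 13816 named genes with at least 1 FPKM in 1 library, 4.5% differed by 1.5-fold or more (273 higher and 349 lower at puberty), so a count of 0 in 6 genes is near that background. The median log2 ratio of these 13816 genes was -0.01, with quartiles of -0.17 and 0.14. Summed over the 6 genes, FPKM was 235 before puberty and 231 at puberty.

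**Figure D1:**
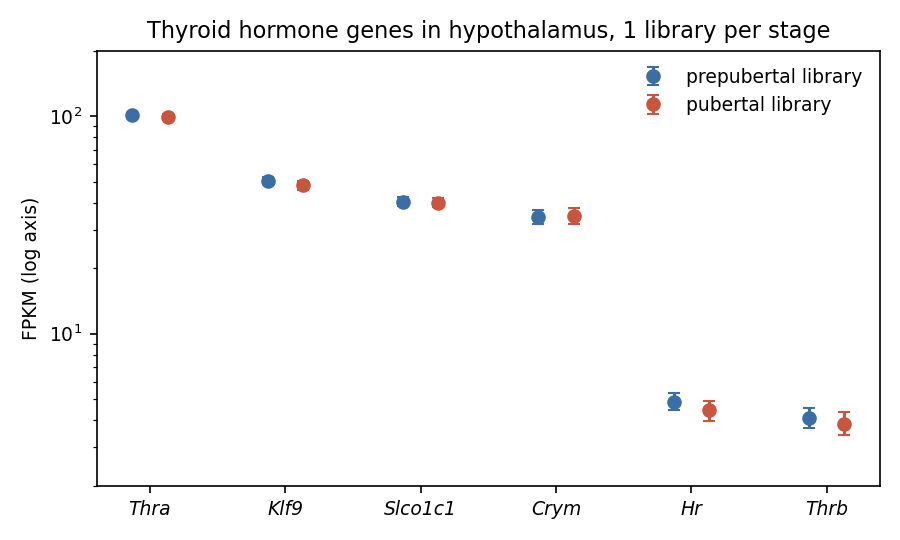
FPKM (log axis) of the 6 listed thyroid hormone genes in the prepubertal and the pubertal library, 1 library per stage. Bars are 95% Poisson intervals from the estimated number of fragments and cover counting error only; the bars of the 2 libraries overlap for every gene.

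The precision of these values was estimated from the FPKM themselves. Low FPKM of genes with 1 transcript fell on steps that correspond to whole fragments, and the step gave about 20700000 fragments for the prepubertal and 16200000 for the pubertal library. By this scale, the 6 genes rested on 352 (Thrb) to 4176 (Thra) fragments before puberty and on 260 to 3216 at puberty. The ratio of pubertal to prepubertal FPKM is given below with an exact 95% interval that covers counting error only. This interval included 1 for all 6 genes, and its bounds lay between 0.791 and 1.13. Among the 13816 genes it left out 1 for 43.2%, and among the 8319 of these with at least 612 fragments in both libraries together, the number for Thrb, for 55%. These shares compare 2 libraries and carry no spread between rats.

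Slco1c1 encodes an organic anion transporter of the brain barriers with a high affinity for thyroxine. It was listed at 40.5 FPKM in the prepubertal library and at 40.0 FPKM in the pubertal library (ENSRNOG00000009740, 1 transcript of 2719 nt). The ratio of FPKM was 0.988 (0.926 to 1.06), and the log2 ratio was -0.02. Slco1c1 exceeded 78.4% of the 13816 genes before puberty and 78.3% at puberty.

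The levels of other genes of the blood vessel wall were set beside Slco1c1. Cldn5, a tight junction gene of endothelium, was listed at 70.9 and 65.5 FPKM, and Slc2a1, the glucose transporter of the barrier, at 51.8 and 54.9 FPKM. The FPKM of Slco1c1 was 0.571 times that of Cldn5 before puberty and 0.611 times at puberty. Slco1a4, a related organic anion transporter of the same barrier, had the highest log2 ratio of the 12 endothelial markers. It was listed at 29.0 FPKM before and 43.5 FPKM at puberty, a ratio of 1.5 (1.41 to 1.6) and a log2 ratio of 0.57, just short of 1.5-fold in FPKM + 1. It passed with its highest transcript alone (0.61), with length centring (0.64) and with Actb made equal (0.97), alternatives under which 4.8%, 4.36% and 17.3% of the 13816 genes differed by 1.5-fold or more in either direction. The order of the related transporters therefore differed between libraries, as Slco1c1 was 1.40 times Slco1a4 before puberty and 0.920 times at puberty. Slco1a4 belongs to a cluster of similar genes, so fragments may have been split between copies and its value is uncertain. Over the 12 endothelial markers, 5 were higher and 7 lower at puberty, with a median log2 ratio of -0.04. The counting interval lay above 1 for 3 of them, Slco1a4 included, and below 1 for 2 (background 19.4% and 23.8%).

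Crym encodes mu-crystallin, which binds T3 in the cytosol. Its level was 34.4 FPKM before puberty and 34.7 FPKM at puberty (ENSRNOG00000046654, 1 transcript of 1186 nt). It was the only listed member with a log2 ratio above 0, at 0.01. The ratio of FPKM was 1.01 (0.898 to 1.13). The interval was wider than that of Slco1c1, as the shorter transcript rested on 665 and 525 fragments.

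Thra, which encodes the receptor that prevails in brain, had the highest level of the 6 genes. Its level was 101 FPKM before puberty and 99.3 FPKM at puberty (ENSRNOG00000009066). The ratio was 0.984 (0.940 to 1.03), the narrowest interval among the members. Thra ranked 1158 of 22304 genes before puberty and 1206 at puberty. The tables hold 1 Thra transcript of 2251 nt, so the receptor that binds T3 and the splice variant that does not bind it were not separated. Nr1d1, a clock repressor encoded on the opposite strand and overlapping the end of Thra, was listed at 8.28 and 7.2 FPKM. The libraries were strand-specific and the assembly used strand, but whether the quantification did is not stated.

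Thrb, which encodes the receptor for feedback of the hormone on its own axis, had the lowest level of the 6 genes. Its level was 4.08 FPKM at the first stage and 3.86 FPKM at puberty, summed over 3 transcripts (ENSRNOG00000006649). The ratio was 0.945 (0.801 to 1.11), and the log2 ratio was -0.06. Nearly all of this came from 1 transcript. ENSRNOT00000008989 held 98.0% of the Thrb FPKM before puberty (4.0 FPKM) and 100% at puberty. ENSRNOT00000008752 had 0.0800 FPKM before puberty, about 6.9 fragments, and 0 at puberty, where 3 fragments would correspond to 0.0443 FPKM. ENSRNOT00000061402 was listed at 0 in both libraries. The files do not name the receptor isoforms these transcripts encode.

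The ratio of the receptors differed between the stages by less than counting error. Thra was 24.7 times Thrb before puberty (22.1 to 27.6) and 25.7 times at puberty (22.7 to 29.3). FPKM is per length, so the ratio compares levels.

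RefSeq sequences of the 250 bases before the transcription start (build GRCr8, which is not the build of the deposited files) were found for 5 of the 8 genes, with Thra having 2 starts. The promoters of both receptors and of Klf9 are shown because these genes differ widely in level, from the least to the most abundant member. Capitals mark the GC box GGGCGG on either strand, the site of Sp1 and Klf family factors, with overlapping matches included.
Thra, GRCr8 chr10:84197891-84198140, plus strand: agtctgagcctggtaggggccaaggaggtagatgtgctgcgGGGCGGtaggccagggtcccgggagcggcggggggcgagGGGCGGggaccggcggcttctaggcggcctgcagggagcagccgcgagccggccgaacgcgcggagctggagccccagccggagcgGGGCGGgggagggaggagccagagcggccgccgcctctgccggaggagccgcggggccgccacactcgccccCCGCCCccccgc
Thrb, GRCr8 chr15:10461447-10461696, minus strand: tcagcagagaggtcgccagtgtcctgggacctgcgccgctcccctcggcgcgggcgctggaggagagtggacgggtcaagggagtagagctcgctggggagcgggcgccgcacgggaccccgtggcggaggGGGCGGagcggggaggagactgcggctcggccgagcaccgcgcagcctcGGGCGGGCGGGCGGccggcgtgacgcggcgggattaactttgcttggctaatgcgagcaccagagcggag
Klf9, GRCr8 chr1:230126396-230126645, plus strand: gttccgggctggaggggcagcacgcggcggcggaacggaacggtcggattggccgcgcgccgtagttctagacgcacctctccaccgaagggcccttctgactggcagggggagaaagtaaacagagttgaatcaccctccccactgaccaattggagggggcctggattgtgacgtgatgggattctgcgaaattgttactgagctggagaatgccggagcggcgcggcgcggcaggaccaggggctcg
This start of Thra and that of Thrb each held 4 GC boxes and Klf9 held 0, whereas 30.5% of all 33469 RefSeq promoter windows of this length held at least 1. GC content was 79.6% for this start of Thra, 74.0% for Thrb and 63.6% for Klf9, against a median of 51.2%. The other start of Thra held 0 GC boxes and had a GC content of 44.8%. The hexamer AGGTCA, the core site of thyroid hormone receptors, was searched on both strands and found in 14.1% of all windows and in none of the 6 windows of Thra, Thrb, Klf9, Dio2 and Dio3. A direct repeat of this hexamer with 4 bases between was found in 1 of the 33469 windows. The windows are short and the letters exact, so the counts describe the windows only.

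Klf9, a zinc finger factor induced by T3 and by glucocorticoids, was the second most abundant of the 6 genes. Its level was 50.6 FPKM before puberty and 48.2 FPKM at puberty (ENSRNOG00000014215, 1 transcript of 2508 nt). The ratio was 0.952 (0.895 to 1.01), and the log2 ratio was -0.07. It rested on 2365 and 1763 fragments.

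Hr encodes hairless, a corepressor of thyroid hormone receptors that is itself induced by T3 in brain. The prepubertal library had 4.87 FPKM and the pubertal library 4.44 FPKM of Hr (ENSRNOG00000011427, 1 transcript of 5189 nt). Its log2 ratio of -0.11 was the farthest from 0 among the members, and the ratio of FPKM was 0.910 (0.791 to 1.04). Klf9 was 10.4 times Hr before puberty and 10.9 times at puberty.

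**Figure D2:**
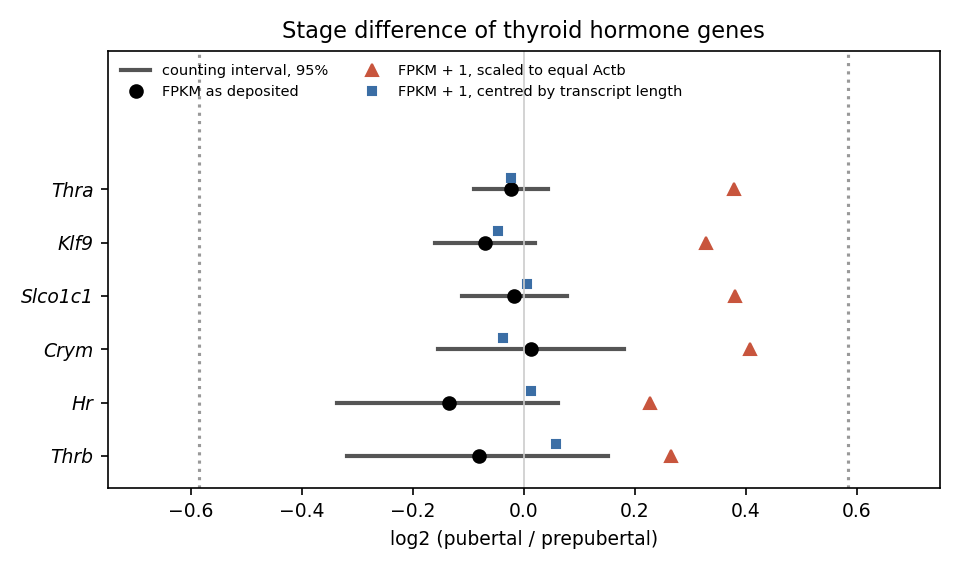
Log2 of pubertal over prepubertal level for the 6 listed genes. Circles are FPKM as deposited with 95% counting intervals, which include 0 for every gene; squares are log2 ratios of FPKM + 1 centred within 10 length classes, triangles those after scaling to equal Actb, and dotted lines mark 1.5-fold.

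In both libraries the order of levels was Thra, Klf9, Slco1c1, Crym, Hr and Thrb. Counting intervals of neighbours were apart for Thra, Klf9 and Slco1c1 in each library. Those of Slco1c1 and Crym were apart in the prepubertal library (38.8 to 42.3 and 31.9 to 37.1 FPKM) and barely so at puberty (38.1 to 42.1 and 31.8 to 37.8 FPKM). Hr was 1.19 times Thrb before puberty, with a counting interval of 1.04 to 1.37 that left out 1, and 1.15 times at puberty (0.976 to 1.35), where the interval included 1.

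Each member was also set beside genes within 2-fold of its own mean level, as low levels vary more. The absolute log2 ratio of Crym was larger than that of 5.32% of 4359 such genes. The corresponding share was 6.89% for Slco1c1, 9.28% for Thra, 19.0% for Thrb, 27.7% for Klf9 and 32.5% for Hr. Every member thus lay closer to 0 than the median gene of its level. For all 13816 genes, 37.2% had a log2 ratio no farther from 0 than Hr.

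**Figure D3:**
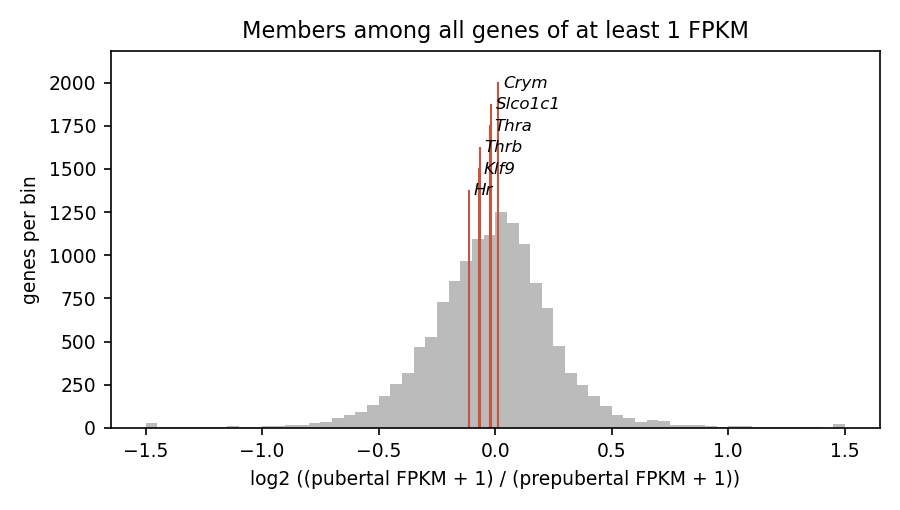
Histogram of log2((pubertal FPKM + 1)/(prepubertal FPKM + 1)) for the 13816 named genes of at least 1 FPKM in 1 library, with values beyond 1.5 either way drawn in the outer bins. Red lines mark the 6 listed members, which lie between -0.11 and 0.01 near the centre.

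Actb, the gene used for normalization in the quantitative PCR of the study, differed between the libraries, at 763 and 576 FPKM (log2 ratio -0.40). Scaling the pubertal library by 1.32 to equal Actb would move the median of the 13816 genes to 0.36. On that scale the log2 ratios of the members ran from 0.23 for Hr to 0.41 for Crym, with a median of 0.35, and 0 of 6 passed 1.5-fold, against 17.3% of the 13816 genes (16.5% higher and 0.767% lower). The same factor multiplies every pubertal value, so the members staying near the median of all genes is no separate result. Log2 ratios elsewhere are given without this scaling unless Actb is named, and those between -0.40 and 0 would mostly turn positive with it.

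Among 11 other listed transporters and carriers of thyroid hormone, 5 were higher and 5 lower at puberty, 1 was at 0 in both libraries, and 0 passed 1.5-fold in FPKM + 1. The most abundant was Slc3a2, the heavy chain of the amino acid transporters that also carry thyroid hormone, at 88.2 and 97.3 FPKM (ratio 1.1, 1.05 to 1.16). Its light chain partners were both lower at puberty. Slc7a5 was listed at 22.4 and 17.9 FPKM (ratio 0.799, 0.735 to 0.868) and Slc7a8 at 7.16 and 4.75 FPKM, with the lowest log2 ratio of the list at -0.51. Slco1a4, described above, had the highest. Slc16a10, an aromatic amino acid transporter that also carries thyroid hormone, had the largest ratio of FPKM at a low level, with 0.801 and 1.58 FPKM (ratio 1.97, 1.28 to 3.06). Its log2 ratio of 0.52 became 0.90 with a pseudocount of 0.1 and 0.78 with Actb made equal, both past 1.5-fold, as were 7.67% of all 13816 genes in either direction with that pseudocount and 17.3% with Actb made equal. Ttr, the thyroxine carrier made by choroid plexus, was listed at 29.0 and 23.0 FPKM. Of the 9 choroid plexus markers other than Ttr, 4 were higher and 5 lower, and their sum was 12.01 before and 12.8 FPKM at puberty. Their part in the Ttr values was not tested.

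Of the 10 listed genes of hormone metabolism and supply, 8 were higher and 2 lower at puberty, with a median log2 ratio of 0.13 and 0 past 1.5-fold. Trh, which encodes thyrotropin-releasing hormone, was listed at 53.4 FPKM before and at 62.0 FPKM at puberty (ratio 1.16, 1.07 to 1.26). Its receptor gene Trhr had the largest log2 ratio of the list at 0.38, with 5.90 and 7.98 FPKM (ratio 1.35, 1.17 to 1.56). Sephs2, which makes the selenium donor needed for deiodinases, had the highest level of the list, at 61.5 FPKM before puberty and 65.7 FPKM at puberty. Sult1a1, a sulfotransferase, was listed at 12.7 and 14.3 FPKM. Tshr, the thyrotropin receptor, had the lowest log2 ratio of the list at -0.26, with 0.532 and 0.284 FPKM (ratio 0.533, 0.313 to 0.884), and passed 1.5-fold with a pseudocount of 0.1, at -0.72. Its level lay under the 1 FPKM of the genes behind the background share. Cga, the common subunit of the pituitary glycoprotein hormones, was listed at 24.6 and 30.0 FPKM. With Actb made equal, Trhr (0.75), Cga (0.67) and Trh (0.61) passed 1.5-fold, on a scale where 16.5% of all 13816 genes were higher by that much.

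Cga and Tshb, both on this list, are pituitary genes. Without them, 6 of the 8 other genes were higher and 2 lower, with a median log2 ratio of 0.11. Of the 9 pituitary markers other than Cga and Tshb, 6 were higher and 3 lower at puberty, with a median log2 ratio of 0.22. Their sum was 53.5 before and 83.7 FPKM at puberty, of which Pomc, which hypothalamic neurons also express, made up 45.8 and 68.3 FPKM. Of these 9 markers, 2 were higher by 1.5-fold or more (background 1.98%), Gh1 on 10 and 37 fragments and Prl on 0 and 41. With Actb made equal, 5 of all 11 pituitary markers were higher by that much (background on that scale 16.5%). Pou1f1, a pituitary transcription factor and among the 3 lower markers, was listed at 0.155 and 0.0565 FPKM. These values rest on about 7 and 2 fragments, and the ratio of 0.365 has a counting interval of 0.037 to 1.92. The part of pituitary tissue in the values of this list was not tested.

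Of the 16 receptor partners and coregulators, 4 were higher and 12 lower at puberty, with 0 past 1.5-fold. The median log2 ratio was -0.15, and the counting interval lay below 1 for 10 genes and above 1 for 1 (background 23.8% and 19.4%). Of the 12 genes with at least 612 fragments, the interval lay below 1 for 10 and above 1 for 0, where the background at that depth was 30.2% below and 24.8% above. When log2 ratios were centred within classes of transcript length, the median became -0.03, and with Actb made equal it became 0.22, with 16 of 16 genes higher and Gps2 past 1.5-fold at 0.65 (background on that scale 16.5% higher and 0.767% lower). Thrap3, a mediator-associated factor, was the most abundant at 61.3 and 60.3 FPKM. Ncor1, the main corepressor of the receptors, was listed at 53.4 and 48.3 FPKM (ratio 0.906, 0.861 to 0.953). Its partners Hdac3 and Tbl1xr1 were at 35.04 and 29.95 FPKM and at 22.4 and 19.97 FPKM. Tbl1x, of the same complex, was listed at 14.1 and 11.8 FPKM. Gps2, a further subunit, had the highest log2 ratio of the list at 0.27, with 9.73 and 11.96 FPKM.

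The coactivator gene Ncoa2 had the lowest log2 ratio of this list at -0.33, with 11.7 and 9.13 FPKM. Ncoa1 was listed at 16.2 and 14.4 FPKM, and the acetyltransferase gene Ep300 at 14.9 and 16.4 FPKM. Among retinoid X receptors, Rxrb had the highest level, with 20.04 FPKM before and 17.4 FPKM at puberty (ratio 0.868, 0.783 to 0.962). It was 0.199 times Thra before puberty and 0.175 times at puberty. Rxra was listed at 7.13 and 7.15 FPKM, and Rxrg at 6.76 and 7.2 FPKM.

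Of 24 other genes known to respond to T3 in brain, 14 were higher and 10 lower at puberty, with a median log2 ratio of 0.08. The list was not split by the direction of the response to T3, so its counts and median do not measure that response. Here 4 genes passed 1.5-fold, 2 in each direction (background 1.98% higher and 2.53% lower). Thrsp, a lipogenic gene named for its response to thyroid hormone, was listed at 19.8 FPKM before and 43.1 FPKM at puberty, a log2 ratio of 1.08 and a ratio of 2.17 (1.92 to 2.46). Aldh1a1, an enzyme of retinoic acid synthesis, was listed at 30.1 and 58.6 FPKM, a log2 ratio of 0.94 and a ratio of 1.94 (1.80 to 2.1). The other 2 were lower at puberty. Slc17a7, a vesicular glutamate transporter of cortex and thalamus, was listed at 26.2 and 12.8 FPKM (log2 ratio -0.98), and Camk4, a calcium-dependent kinase, at 14.1 and 8.91 FPKM (log2 ratio -0.61). On the scale of equal Actb the signs of these 4 genes stayed, but the log2 ratio of Camk4 was -0.24 and no longer past 1.5-fold, and that of Slc17a7 was -0.60. Dbp (0.80), Flywch2 (0.70), Calb1 (0.63), Cntn2 (0.62), Mbp (0.61) and Hopx (0.61) came past 1.5-fold on that scale, which made 8 genes higher and 1 lower of 24 (background on that scale 16.5% higher and 0.767% lower).

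Nrgn, the best known target of T3 in forebrain neurons, was listed at 19.3 and 12.6 FPKM, a ratio of 0.655 (0.557 to 0.771). Its log2 ratio of -0.57 was just short of 1.5-fold in FPKM + 1. It passed with a pseudocount of 0.1, at -0.61, and with length centring, at -0.63 (background 7.67% and 4.36%). With Actb made equal it was -0.20 and did not pass. Slc17a7 and Nrgn are also markers of thalamus and telencephalon. Of the 12 markers on that list, 9 were lower and 3 higher at puberty, with a median log2 ratio of -0.44, and 4 were lower by 1.5-fold or more (background 2.53%). Apart from Slc17a7 these were CAMK2A, with 59.6 and 24.8 FPKM, Tcf7l2, with 19.9 and 12.2 FPKM, and Neurod6, with 5.08 and 2.36 FPKM. With Actb made equal, 7 of the 12 markers were lower and 5 higher. On that scale 2 were lower and 1 higher by 1.5-fold or more (background 0.767% lower and 16.5% higher). The sum of the list was 587 before and 544 FPKM at puberty, of which Calb2, one of the 3 higher genes, made up 323 and 374 FPKM. Without Calb2, Slc17a7 and Nrgn, the sum of the other 9 markers was 219 before and 145 FPKM at puberty. The part of such tissue in these values was not tested.

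**Figure D4:**
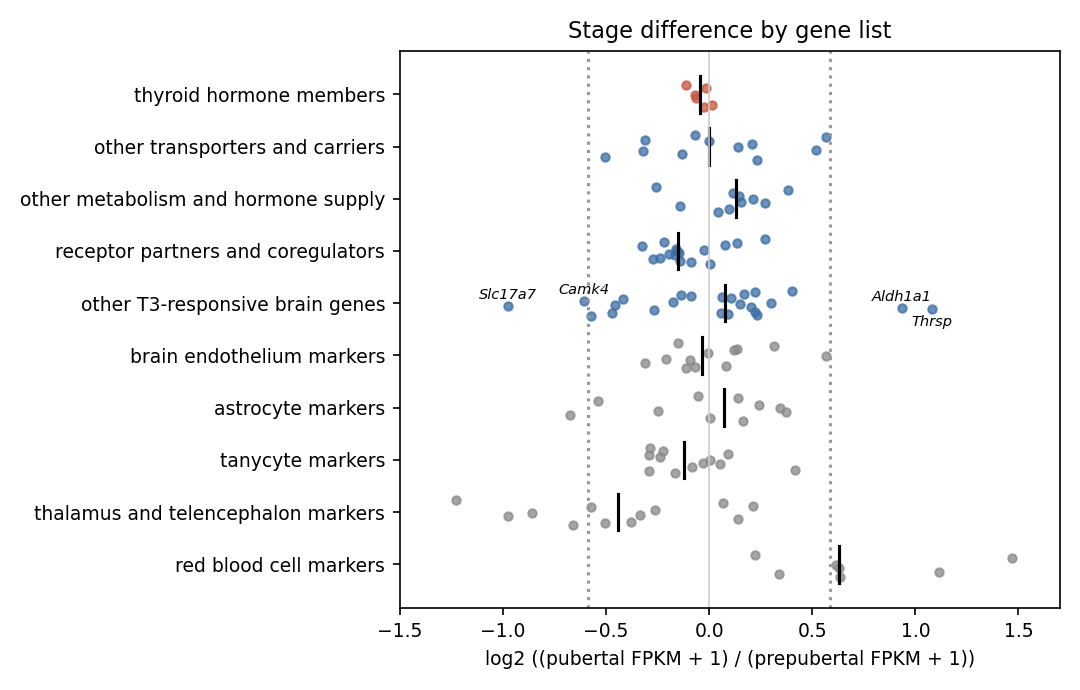
Log2((pubertal FPKM + 1)/(prepubertal FPKM + 1)) of each gene by list, with black bars at list medians and dotted lines at 1.5-fold. The 6 listed members lie within 0.11 of 0, and Thrsp, Aldh1a1, Slc17a7 and Camk4 are the genes past 1.5-fold among the pathway lists.

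The other genes of this list with at least 10 FPKM stayed within 1.5-fold as deposited. Mbp, which encodes a structural protein of myelin, was listed at 4633 and 5335 FPKM. Calb1, a calcium buffer of neurons, was listed at 170 and 198 FPKM, and Enpp2, which makes lysophosphatidic acid, at 117 and 132 FPKM. Dbp, a clock output factor, was listed at 45.4 and 60.2 FPKM. The neurofilament genes differed in direction, Nefh with 55.0 and 58.8 FPKM and Nefm with 46.1 and 33.3 FPKM. Kcnj10, a potassium channel of astrocytes, was at 39.9 and 37.5 FPKM, the nuclear receptor Rora at 38.8 and 34.3 FPKM, and Flywch2 at 28.5 and 35.4 FPKM. Sema7a, Rasd2, Hopx and Cntn2 ranged between 11.6 and 18.4 FPKM over both libraries.

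Levels of marker genes of several cell types were also set beside the members. Astrocyte markers were 6 higher and 4 lower at puberty with a median log2 ratio of 0.07, and Gja1, a gap junction gene, was lowest with 106 and 66.3 FPKM (log2 ratio -0.67). Gfap was listed at 257 and 288 FPKM. Of 12 tanycyte markers, 4 were higher and 8 lower with a median of -0.12, and Rax, a defining gene, was listed at only 0.581 and 0.410 FPKM. Neuron markers were 2 higher and 10 lower, with a median of -0.11. Oligodendrocyte markers were 5 higher and 5 lower, with a median of -0.04, and reference genes 7 higher and 3 lower, with a median of 0.12. Red blood cell markers were higher at puberty in 7 of 7 genes, with sums of 6847 and 13105 FPKM. The part of these lists in the values of the members was not tested.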

How the data were processed

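Hypothalamic RNA of prepubertal and pubertal rats was depleted of ribosomal RNA, made into strand-specific libraries and sequenced as paired ends. The authors used TopHat for alignment and Scripture with Cufflinks 2.1.1 for assembly, and deposited FPKM per transcript, computed by Cuffdiff 2.1.1 from library size and transcript length. The submitters' processing notes name the build Rnor_5.0, whereas the methods name the annotation of a later rat build. The authors also deposited fold changes, p-values and q-values, which were not used, and the lncRNA tables were not used.

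FPKM of the mRNA table were summed per gene name (59 of 26324 transcripts without a name were left out), and log2 ratios used a pseudocount of 1. With 1 library per stage no test was made, and a 1.5-fold threshold described size. Fragment numbers came from the FPKM step of low values (1500 to 6000 nt, up to 10 fragments), where 97.2% and 97.0% of 830 and 942 values came out whole within 0.1, with a mean fragment of 255 nt. This was tested on simulated data. Intervals at 95% are exact (Clopper-Pearson or Poisson) and cover counting error only. Members and lists were chosen with earlier results of these data known. Genes named outside the members were those past 1.5-fold, the highest, lowest and most abundant of a list, and pathway genes of at least 10 FPKM. Marker lists are given mainly by counts, and the values of some genes are not reported here. Slc16a10, Pou1f1, Rxra, Rxrg, Nr1d1, Cldn5, Slc2a1, Gfap and Rax, and in the closing part Tshb, were added after values were seen. Alternatives were a pseudocount of 0.1, scaling to equal medians or equal Actb, the highest transcript, transcripts of at least 0.1 FPKM, FPKM of the comparison table, centring in 10 length classes and a 2-fold threshold. Tools were scipy 1.17.1, numpy 2.4.6, matplotlib 3.10.9 and pandas 2.3.3 in Python 3.11.15.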

Additional observations from a re-analysis of the deposited data

How the results depend on the processing

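With scaling to equal Actb, the median log2 ratio of the 6 members became 0.35, from -0.04, while the median of all 13816 genes became 0.36. The list medians became 0.49 for metabolism and supply, 0.22 for receptor partners and coregulators, 0.42 for other T3-responsive genes and 0.23 for Nr1d1 with Med24. Which scale is nearer to the RNA content per cell was not tested. Of 94 alternative values, 11 moved by more than a set distance, all under this scaling. The distance was the mean of those from a value to the lower and the upper bound of its counting interval (for a list, the median over its genes). Centring by length moved no value that far. It still took the median of the receptor partners and coregulators from -0.15 to -0.03, outside the median bounds of their counting intervals (-0.28 to -0.05). Without Actb scaling, member log2 ratios stayed between -0.13 and 0.06, and the count of members past 1.5-fold was 0 throughout. No paired analysis was possible because each stage has 1 library, and no replicate could be left out.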

Other observations

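Of 11 pituitary markers measured in these hypothalami, 8 were higher and 3 lower at puberty, with a median log2 ratio of 0.22. Tshb, the specific subunit of thyrotropin, was listed at 4.68 and 5.28 FPKM, a ratio of 1.13 with a counting interval of 0.648 to 2.02. Pomc was the most abundant, with 45.8 and 68.3 FPKM. Gh1 was listed at 0.872 and 4.09 FPKM, on 10 fragments before puberty, and Prl at 0 and 3.4 FPKM.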
